A study of Mus musculus with 45 samples.

Results

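The MYC family and its network were described through 10 genes of the 54532 in the count table: the MYC genes Mycn, Myc and Mycl, their partner Max, the antagonists Mxd1, Mxd3, Mxd4, Mxi1 and Mnt, and the Max-like gene Mlx. The members were chosen by symbol, each symbol had 1 row in the table, and the reason for choosing them was the low Mycn level in organoids 8 h after retinoic acid (RA). The 8 h values of RA-treated and untreated organoids are therefore given as a description with no test, and tests were kept for the later times and for the comparisons across time.

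The samples were organoids grown from R1 mouse embryonic stem (ES) cells, a wild-type line, as clones in Matrigel in N2B27, a serum-free medium that permits neural differentiation. At day 2 the medium was changed to one with 250 nM all-trans RA or one without it, so the untreated organoids shared the medium, the matrix and the day of the medium change. The dose and times are those of the series design and the sample titles, while the text of the treatment label writes the dose in micromolar and the last times slightly later. RNA was taken at day 2, and from both arms at 8 h, at 18 h and at steps of 12 h up to 78 h, with 3 biological replicates in each of 15 conditions, 45 libraries in all (3 at day 2, 21 untreated and 21 RA-treated). All samples came from 1 cell line, and no mutant or other agent was part of the groups.

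MYC proteins are basic helix-loop-helix leucine zipper transcription factors that bind DNA as dimers with MAX, most tightly at the E-box CACGTG, and drive genes for ribosome assembly, nucleotide synthesis and growth. MXD proteins, MXI1 and MNT also pair with MAX at E-boxes, but recruit SIN3 corepressors, and MNT and some MXD proteins pair with MLX as well. MYCN is the family member known for its part in expanding neural progenitors of the embryonic brain, MYC is widely used by dividing cells, and MXD genes are often turned on as cells differentiate. Retinoic acid is a morphogen of the hindbrain and spinal cord that acts through nuclear receptors, and a drop of MYCN after retinoic acid is well known from neuroblastoma cells.

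In these organoids the Mycn level after RA treatment was 16.0% of the untreated level at 18 h and 85.4% of it at 78 h. Myc was 2.09-fold lower than in untreated organoids at 18 h and 3.47-fold higher at 78 h. Mycl was 2.40-fold higher at 30 h, a time whose libraries stood apart in Y-linked genes, as given below. Among the antagonists Mxd4 rose 4.90-fold at 30 h, the same time, where its untreated mean was the lowest of the 15 conditions. It was 2.48-fold higher at 18 h and 1.79-fold higher at 78 h, and Mxd1 rose less. The fold changes of Max, Mxi1, Mnt and Mlx were at most 1.38 in either direction at the tested times.

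The promoters of 3 members held the E-box that MYC and its antagonists bind, and these are shown because they are the places in the members' own genes where that letter sequence occurs. Each is the stretch of 250 bases just before the RefSeq transcription start in assembly GRCm38.p6, written 5′ to 3′ on the strand of the gene, with CACGTG in capitals.
Mxd4 (chr5:34187711-34187960, minus strand): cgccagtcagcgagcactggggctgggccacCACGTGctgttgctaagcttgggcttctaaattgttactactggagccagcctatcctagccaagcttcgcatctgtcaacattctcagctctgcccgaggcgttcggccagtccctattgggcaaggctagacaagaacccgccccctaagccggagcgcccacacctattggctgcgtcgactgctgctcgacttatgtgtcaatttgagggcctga
Mnt (chr11:74830674-74830923, plus strand): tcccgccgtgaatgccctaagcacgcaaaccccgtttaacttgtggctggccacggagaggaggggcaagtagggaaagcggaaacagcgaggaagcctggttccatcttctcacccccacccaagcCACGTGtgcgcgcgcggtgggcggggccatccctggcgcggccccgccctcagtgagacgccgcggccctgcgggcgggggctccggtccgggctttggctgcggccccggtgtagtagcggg
Mlx (chr11:101087040-101087289, plus strand): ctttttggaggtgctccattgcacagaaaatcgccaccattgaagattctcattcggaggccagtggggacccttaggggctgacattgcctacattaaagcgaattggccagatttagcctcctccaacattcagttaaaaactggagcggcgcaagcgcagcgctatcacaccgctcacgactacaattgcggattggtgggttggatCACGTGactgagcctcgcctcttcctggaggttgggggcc
The E-box lay 213 bases before the start in Mxd4, 117 in Mnt and 34 in Mlx. RefSeq starts were at hand for 9 members with 11 promoters, since Mxi1 had more than 1 start, and CACGTG, which reads the same on both strands, was in 3 of the 11 against 1978 of all 32851 promoters (6.02%). Direct repeats of AGGTCA or of AGTTCA with 5 bases of any kind between the copies, forms of the element that retinoic acid receptors bind, were in none of the 11 on either strand, against 0.00913% and 0.0213% of all promoters, which says only that these letters are not in windows of this length. TATAAA was in the Mycl promoter and in 12.4% of all. A match of letters is a description of the sequence and not of binding, which was not measured here.

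The genes lie on the mouse genome as follows in GRCm38 with the GENCODE M21 annotation. Mycn is at chr12:12936093-12941914 (minus strand), Myc at chr15:61985391-61990374 (plus), Mycl at chr4:122995652-123002485 (plus) and Max at chr12:76937269-76962201 (minus). Mxd1 is at chr6:86647042-86669161 (minus), Mxd3 at chr13:55325168-55329823 (minus), Mxd4 at chr5:34173883-34187720 (minus), Mxi1 at chr19:53310518-53375810 (plus), Mnt at chr11:74830920-74845725 (plus) and Mlx at chr11:101087277-101092207 (plus). Reads over all exons of a gene were counted together. Exons of Mxd3 overlap those of Prelid1 on the other strand, which reached 6537 counts, and exons of Mlx overlap those of Psmc3ip, which reached 1588 counts. The library kit kept strand, but the strand setting of the counting is not given in the sources used here, so values of Mxd3 and Mlx are uncertain. The partners on the other strand of Mxd4 and Mxi1 had at most 1 and 3 counts.

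The libraries held 17298632 to 39688686 counts (median 25923745), and levels are given as CPM, the counts set to a common library size, with TMM scaling. Of the members, Mxd3 had the fewest counts (99 to 365 a library) and Mycn the most (1179 to 13187), while 3 counts in the shallowest library were 0.173 CPM. All 10 members were therefore tested in every comparison. Fold changes and tests came from edgeR's quasi-likelihood test, which is two-sided, with Benjamini-Hochberg adjustment over all genes tested, and a gene passed, rising or falling, at an adjusted p under 0.01. Values after ± are SD with n = 3 unless named as standard errors (SE). With RNA of whole organoids, fewer cells of a type and less RNA per cell cannot be told apart.

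A few libraries stood apart from their labels' expectation. The Y-linked genes Ddx3y, Eif2s3y, Kdm5d and Uty averaged 22.6 to 89.9 CPM in 39 libraries but 1.22 to 3.73 CPM in 6, although all came from 1 line: RA 8 h replicate 3, all 3 untreated 30 h libraries, and RA 30 h replicates 1 and 3. RA 8 h replicate 3 was thus the only low library at 8 h, and RA 30 h replicate 2 the only high one at 30 h. Fold changes at these times are therefore given with and without those libraries for Mycn, Myc, Mycl, Mxd1 and Mxd4, and at 30 h for Max. For the other members not all of these values are given. Without RA 30 h replicate 2 all 30 h libraries were low, while those of 18 h and 42 h were all high. At 30 h this difference and time cannot be told apart. The untreated 30 h means of Mycl (22.6 CPM) and Mxd4 (13.2 CPM) were the lowest of the 15 conditions. By their library numbers, 16 libraries were taken as a later series, among them all of the 66 h and 78 h libraries. For comparisons of 78 h with 18 h, time and series therefore cannot be told apart. The same holds for RA-treated levels from 54 h to 66 h, while of the untreated 54 h libraries only replicate 3 was of the later series. RA 30 h replicates 2 and 3 were also of the later series, while no untreated 30 h library was. Day 2 replicate 3 was of it too, while no 18 h library was, so the day 2 group mixes series. The labels name no series. Within the later series, the numbers of the day 2 and 30 h libraries lie apart from those of 54 h to 78 h.

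The level of Mycn fell with time in untreated organoids and was lowest of all at 18 h and 30 h after RA treatment. At day 2 the 3 libraries had 454, 454 and 518 CPM. The highest was replicate 3, the only day 2 library of the later series. After 8 h untreated libraries had 345, 342 and 376 CPM and RA-treated libraries 88.5, 87.9 and 82.7 CPM. The groups at 8 h lay far apart, the RA mean being 24.4% of the untreated one (log2 fold change -2.02, and -1.99 without RA replicate 3), which is the value that chose the members.

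At 18 h, the first time that was tested, untreated libraries had 353, 327 and 349 CPM of Mycn and RA-treated libraries 51.9, 55.8 and 57.4 CPM. The groups were wide apart, and Mycn fell 6.20-fold (log2 fold change -2.63, SE 0.0572, edgeR adjusted p = 1.9e-12). At 30 h untreated libraries had 267, 275 and 255 CPM and RA-treated libraries 51.6, 94.2 and 47.2 CPM. RA replicate 2, which stood apart by its Y-linked genes, was the high one of the RA group but still far below the untreated group, and Mycn fell by 2.06 on the log2 scale (SE 0.255, edgeR adjusted p = 0.0013). Without that library the log2 fold change was -2.45 (edgeR adjusted p = 2.3e-15).

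From 42 h to 78 h the untreated mean went down at each step, from 220 to 137 CPM. The RA-treated mean went up from 85.5 CPM at 42 h to 128 CPM at 66 h and was 117 CPM at 78 h. In the RA arm the step from 54 h to 66 h was also a step between library series. At 42 h the untreated libraries had 216, 211 and 234 CPM and the RA-treated libraries 84.8, 89.2 and 82.6 CPM, a log2 fold change of -1.37 (SE 0.056, edgeR adjusted p = 2.3e-08). At 54 h the values were 194, 205 and 201 CPM against 82.4, 103 and 109 CPM, a log2 fold change of -1.05 (SE 0.0856, edgeR adjusted p = 2.8e-06). The groups did not overlap at either time, and the RA mean was 38.8% and then 48.9% of the untreated mean.

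At 66 h untreated libraries had 171, 179 and 170 CPM of Mycn and RA-treated libraries 123, 124 and 136 CPM, a log2 fold change of -0.45 (SE 0.0531, edgeR adjusted p = 7.2e-05). At 78 h they had 131, 142 and 137 CPM against 126, 117 and 108 CPM. All 3 RA-treated libraries were still the lower ones, but the change missed the threshold (log2 fold change -0.23, 95% interval -0.35 to -0.10, edgeR adjusted p = 0.012). It passed in several alternative fits and with 1 library left out, RA replicate 1 (log2 fold change -0.29, edgeR adjusted p = 0.0012), so the 78 h call depends on the setting.

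**Figure D1:**
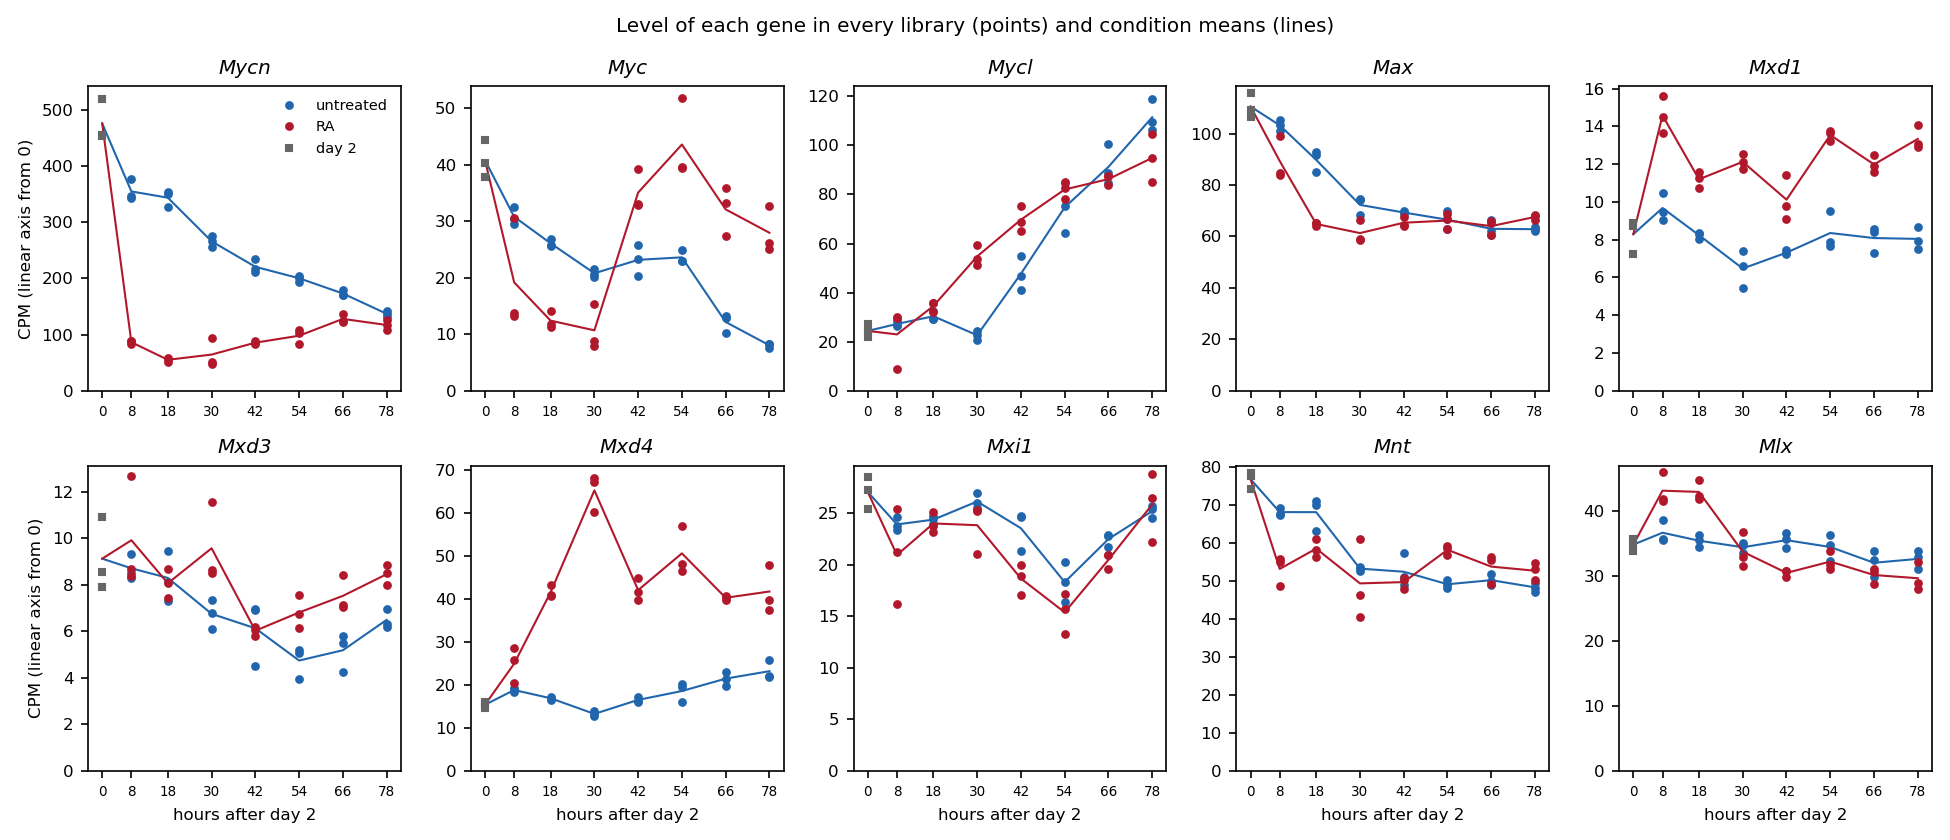
Level of each of the 10 genes in CPM on a linear axis from 0 against hours after day 2, with points for single libraries (grey squares day 2, blue untreated, red RA-treated) and lines through the condition means. Mycn in RA-treated organoids lay between 47.2 and 57.4 CPM in 5 of the 6 libraries at 18 h and 30 h. It stayed below the untreated libraries up to 78 h (117 against 137 CPM on average). Mxd4 in RA-treated organoids was highest at 30 h, where all libraries but RA replicate 2 were low in Y-linked genes. Mycl climbed in both arms.

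Myc took a course of its own, first below and then above the untreated level. At day 2 its 3 libraries had 40.2, 37.8 and 44.4 CPM. At 8 h untreated libraries had 32.4, 29.6 and 30.4 CPM and RA-treated libraries 13.8, 13.3 and 30.5 CPM. RA replicate 3, the library with low Y-linked genes, was at the untreated level, so the groups overlapped, and the log2 fold change was -0.67 with it and -1.18 without it.

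At 18 h untreated libraries had 25.6, 26.9 and 25.7 CPM of Myc and RA-treated libraries 11.3, 14.1 and 11.8 CPM. Myc fell 2.09-fold, with each RA-treated library below each untreated one (log2 fold change -1.06, SE 0.0874, edgeR adjusted p = 6.3e-07). At 30 h the levels were 21.6, 20.2 and 20.6 CPM against 8.77, 15.4 and 7.90 CPM, again apart but with RA replicate 2 the highest of its group. That change did not pass (log2 fold change -0.97, 95% interval -1.46 to -0.48, edgeR adjusted p = 0.025), and without RA replicate 2 it passed at -1.34 (edgeR adjusted p = 5.9e-09).

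By 42 h the order had turned, with 20.3, 25.9 and 23.3 CPM of Myc in untreated libraries against 39.3, 33.0 and 32.9 CPM after RA treatment, a log2 fold change of 0.59 (SE 0.0962, edgeR adjusted p = 4.8e-04) that did not pass in the fit of all 45 libraries (edgeR adjusted p = 0.013). At 54 h Myc was highest in RA-treated organoids, with 51.7, 39.7 and 39.4 CPM against 23.0, 23.0 and 24.9 CPM (log2 fold change 0.86, SE 0.109, edgeR adjusted p = 7.3e-05). Each RA-treated library was above each untreated one at both times. At 66 h the untreated level was lower, with 10.3, 13.3 and 12.9 CPM, and the RA-treated libraries had 27.3, 35.8 and 33.2 CPM (log2 fold change 1.39, SE 0.116, edgeR adjusted p = 7.1e-06). At 78 h the untreated libraries had 8.21, 8.34 and 7.57 CPM and the RA-treated libraries 25.0, 26.1 and 32.8 CPM, a rise of 3.47-fold (log2 fold change 1.80, SE 0.109, edgeR adjusted p = 2.2e-07).

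Mycl, the family member first found amplified in lung cancer, rose with time in both arms and did so earlier after RA treatment. At 8 h the untreated libraries had 26.8, 26.5 and 28.4 CPM and the RA-treated libraries 30.1, 29.8 and 9.05 CPM. RA replicate 3 was again far from its group, and the log2 fold change was -0.22 with it and 0.15 without it. At 18 h the values were 32.7, 29.2 and 29.2 CPM against 35.7, 32.3 and 35.7 CPM, a change that did not pass (log2 fold change 0.20, 95% interval 0.06 to 0.33, edgeR adjusted p = 0.026), though it did under scaling by library totals (0.31, adjusted p = 0.0020).

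At 30 h untreated libraries had 22.6, 20.7 and 24.5 CPM of Mycl and RA-treated libraries 53.5, 59.5 and 51.2 CPM, so that here RA replicate 2 lay close to its group. Mycl rose 2.40-fold (log2 fold change 1.26, SE 0.112, edgeR adjusted p = 3.2e-04, and 1.19 without RA replicate 2). At 42 h the levels were 41.2, 55.0 and 46.8 CPM against 75.5, 68.6 and 65.1 CPM (log2 fold change 0.54, SE 0.0935, edgeR adjusted p = 7.2e-04), which did not pass in the fit of all 45 libraries (edgeR adjusted p = 0.015).

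At 54 h and 66 h the Mycl groups overlapped, with log2 fold changes of 0.11 (95% interval -0.06 to 0.28) and -0.10 (95% interval -0.22 to 0.02). At 78 h untreated libraries had 106, 110 and 119 CPM and RA-treated libraries 85.2, 95.0 and 104 CPM, all of the latter lower, with a log2 fold change of -0.24 that did not pass (95% interval -0.38 to -0.10, edgeR adjusted p = 0.018). Without RA replicate 3 it passed, at -0.30 (edgeR adjusted p = 0.0029).

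Max, the shared partner without which the MYC proteins do not bind DNA, moved little. Untreated libraries at 18 h had 92.8, 85.0 and 91.6 CPM and RA-treated libraries 65.1, 64.0 and 65.4 CPM, so Max fell 1.38-fold with no overlap (log2 fold change -0.46, SE 0.0501, edgeR adjusted p = 6.9e-06). At 30 h the levels were 74.4, 74.2 and 68.2 CPM against 58.9, 66.4 and 58.6 CPM, which did not pass (log2 fold change -0.25, edgeR adjusted p = 0.084) but did without RA replicate 2 (-0.32, edgeR adjusted p = 6.0e-04). From 42 h to 78 h the log2 fold change lay between -0.09 and 0.10, and the widest 95% interval ran from -0.15 to 0.09, at 54 h.

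Mxd4, a MAX-binding repressor, had the largest rise of the members at a single time, 30 h, where all libraries but RA replicate 2 were low in Y-linked genes. At each other tested time it rose less than Myc did at 78 h. At 8 h untreated libraries had 18.3, 19.3 and 18.7 CPM and RA-treated libraries 25.7, 28.5 and 20.5 CPM, with no overlap (log2 fold change 0.43, and 0.54 without RA replicate 3). At 18 h they had 17.1, 16.9 and 16.5 CPM against 43.2, 40.6 and 40.8 CPM. Mxd4 rose 2.48-fold there with close replicates (log2 fold change 1.31, SE 0.061, edgeR adjusted p = 2.5e-09).

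At 30 h the untreated libraries had 12.6, 13.2 and 13.8 CPM of Mxd4 and the RA-treated libraries 68.2, 67.2 and 60.3 CPM. RA replicate 2 did not stand out for this gene, and the rise was 4.90-fold (log2 fold change 2.29, SE 0.103, edgeR adjusted p = 2.8e-05, and 2.27 without that library). At 42 h the levels were 16.1, 17.0 and 16.3 CPM against 44.9, 39.6 and 41.5 CPM (log2 fold change 1.34, SE 0.0696, edgeR adjusted p = 1.3e-07). At 54 h they were 15.9, 20.1 and 19.5 CPM against 57.0, 48.2 and 46.5 CPM (log2 fold change 1.43, SE 0.106, edgeR adjusted p = 1.4e-06).

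From 54 h to 66 h the RA-treated mean of Mxd4 went from 50.6 to 40.2 CPM and the untreated mean from 18.5 to 21.4 CPM, so the difference was smaller. For the RA-treated means, time and library series cannot be told apart here. The 66 h libraries had 19.8, 21.4 and 23.1 CPM untreated and 40.2, 40.7 and 39.8 CPM after RA treatment (log2 fold change 0.89, SE 0.0619, edgeR adjusted p = 1.9e-06). The 78 h libraries had 21.9, 21.7 and 25.8 CPM against 37.3, 39.8 and 48.0 CPM (log2 fold change 0.84, SE 0.0972, edgeR adjusted p = 3.5e-05). The groups were apart at every time from 8 h to 78 h.

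Mxd1, the founding member of the MXD repressors, rose after RA treatment at each of the 6 tested times, at a low level. At 18 h its libraries had 8.30, 8.37 and 8.06 CPM untreated and 11.3, 10.7 and 11.6 CPM after RA treatment (log2 fold change 0.45, SE 0.0873, edgeR adjusted p = 7.5e-04). At 30 h they had 5.43, 6.60 and 7.39 CPM against 12.1, 11.8 and 12.5 CPM (log2 fold change 0.89, SE 0.161, edgeR adjusted p = 0.0061). At 78 h they had 7.50, 8.69 and 7.95 CPM against 12.9, 13.1 and 14.1 CPM. The 78 h rise was 1.65-fold (log2 fold change 0.73, SE 0.0967, edgeR adjusted p = 1.1e-04), and no library of the RA group fell into the untreated range at any time.

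The 8 h level of Mxd1 was already apart, with 9.06, 9.48 and 10.5 CPM untreated and 15.6, 14.5 and 13.6 CPM after RA treatment (log2 fold change 0.61, and 0.65 without RA replicate 3). In between, the log2 fold changes were 0.46 at 42 h (edgeR adjusted p = 0.0065), 0.68 at 54 h (edgeR adjusted p = 4.3e-04) and 0.55 at 66 h (edgeR adjusted p = 9.5e-04). The 42 h call was lost in each of 5 fits that left out 1 library (adjusted p from 0.018 to 0.026) and the 30 h call in 5 of 6 (adjusted p from 0.019 to 0.039). Leaving out RA 30 h replicate 2 kept the 30 h call instead, at 0.92 (edgeR adjusted p = 1.6e-05).

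Mxd3, an MXD gene known for expression in dividing cells, had a low level, 3.93 to 12.7 CPM over all libraries. At 66 h the untreated libraries had 5.49, 5.78 and 4.26 CPM and the RA-treated libraries 7.11, 8.39 and 7.05 CPM. All RA-treated libraries were higher, yet the change did not pass in the main fit, which was unpaired (log2 fold change 0.52, 95% interval 0.24 to 0.80, edgeR adjusted p = 0.012). With same-numbered libraries taken as pairs, it passed at 0.52 (edgeR adjusted p = 0.0014). Unpaired, it also passed with library totals (edgeR adjusted p = 0.0070) and DESeq2 (adjusted p = 0.0096). The same held in the fit of all 45 libraries (edgeR adjusted p = 0.0086) and without a filter on low counts (edgeR adjusted p = 0.0029). The 66 h call thus depends on the setting. The values at 54 h (log2 fold change 0.50, edgeR adjusted p = 0.02) and 78 h (0.38, edgeR adjusted p = 0.014) did not pass, with groups that did not overlap. Without a filter on low counts the 54 h value passed (0.51, edgeR adjusted p = 0.0084).

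Mxi1, the MXD relative also called Mxd2, passed at 1 time. Its 42 h libraries had 24.6, 21.3 and 24.7 CPM untreated and 18.9, 17.1 and 20.0 CPM after RA treatment (log2 fold change -0.35, SE 0.0897, edgeR adjusted p = 0.0082), and this call was lost in 4 of the 6 fits without 1 library (edgeR adjusted p from 0.021 to 0.044) and under scaling by library totals. At 18 h the log2 fold change was -0.01 with a 95% interval from -0.14 to 0.11. At 78 h it was 0.04 with an interval from -0.14 to 0.22.

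Mnt, the most widely expressed MAX-binding repressor, moved in opposite directions at separate times and by small amounts. At 18 h untreated libraries had 71.0, 63.1 and 70.0 CPM and RA-treated libraries 56.1, 58.0 and 61.1 CPM. Mnt fell by 0.21 on the log2 scale (SE 0.0589, edgeR adjusted p = 0.0086), a call lost without any 1 of 5 libraries (edgeR adjusted p from 0.011 to 0.040) and under scaling by library totals (-0.10, adjusted p = 0.17). At 54 h the levels were 48.1, 48.7 and 50.2 CPM against 56.7, 59.0 and 58.6 CPM, and Mnt rose (log2 fold change 0.22, SE 0.0554, edgeR adjusted p = 0.0058), a call lost in 5 of the 6 fits without 1 library (edgeR adjusted p from 0.014 to 0.032). At 30 h the RA-treated libraries spread over 46.3, 61.0 and 40.5 CPM around untreated values of 52.6, 53.1 and 53.7 CPM. RA replicate 2 alone was above the untreated range, and without it Mnt fell at 30 h (log2 fold change -0.31, edgeR adjusted p = 0.0018).

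Mlx, the MAX-like partner of the glucose-responsive factors MLXIP and MLXIPL, rose at 18 h and fell at 42 h. The 18 h libraries had 35.4, 36.2 and 34.5 CPM untreated and 41.8, 42.2 and 44.7 CPM after RA treatment (log2 fold change 0.29, SE 0.0585, edgeR adjusted p = 0.0011). The 42 h libraries had 35.6, 36.5 and 34.3 CPM against 30.8, 29.8 and 30.7 CPM (log2 fold change -0.23, SE 0.0597, edgeR adjusted p = 0.0082), a call lost in 5 of the 6 fits without 1 library and under scaling by library totals. The groups were apart at both times.

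**Figure D2:**
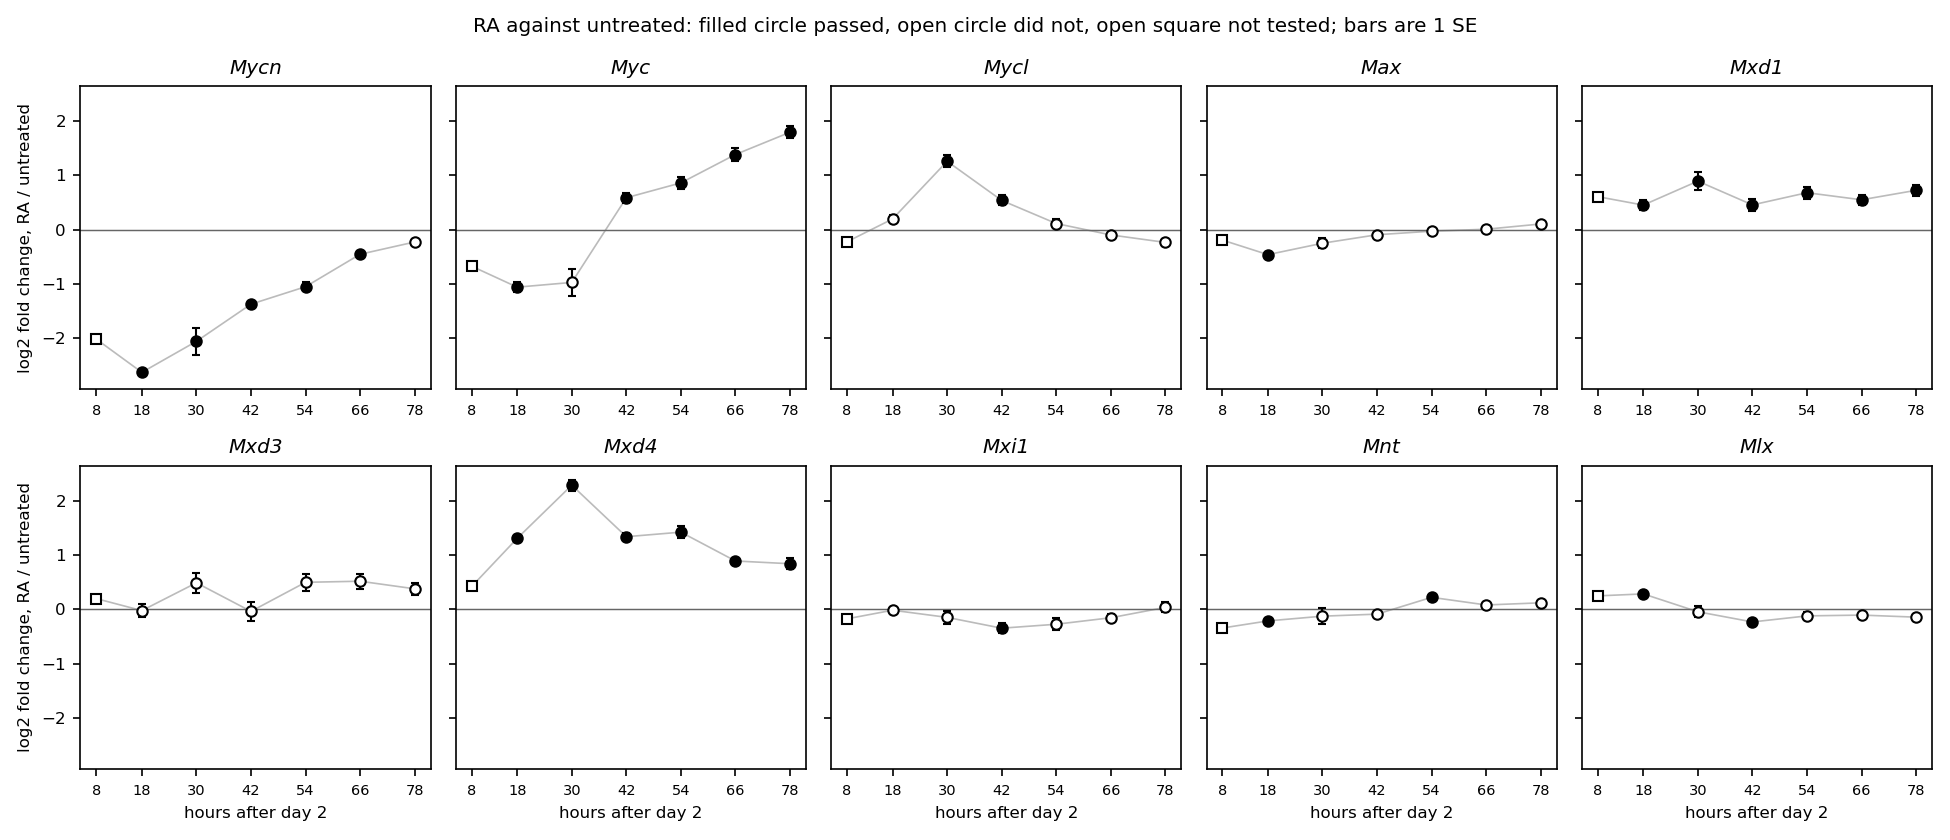
Log2 fold change of RA-treated over untreated organoids for each gene against hours after day 2, with bars of 1 SE, filled points where edgeR's adjusted p was under 0.01, open circles where it was not, and an open square for the untested 8 h value. Mycn went from -2.63 at 18 h to -0.23 at 78 h, Myc from -1.06 to 1.80, and Mxd4 stayed above 0 throughout with its highest value, 2.29, at 30 h.

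The count of members that passed has to be read against how much of the whole transcriptome moved. At 18 h 3 members rose (Mxd1, Mxd4, Mlx) and 4 fell (Mycn, Myc, Max, Mnt), where 22.3% of all tested genes rose and 20.3% fell. At 30 h 3 rose (Mycl, Mxd1, Mxd4) and 1 fell (Mycn), against 8.21% and 5.92% of all genes. Without RA 30 h replicate 2, 4 members fell (Mycn, Myc, Max, Mnt), against 21.7% of all genes. At 42 h 4 rose (Myc, Mycl, Mxd1, Mxd4) and 3 fell (Mycn, Mxi1, Mlx), against 20.5% and 17.0%, and 1 fell under scaling by library totals.

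At 54 h 4 members rose (Myc, Mxd1, Mxd4, Mnt) and 1 fell (Mycn), against 20.8% and 17.9% of all genes. At 66 h 3 rose (Myc, Mxd1, Mxd4) and 1 fell (Mycn), against 17.8% and 15.6%. At 78 h the same 3 rose and 0 fell, against 19.2% and 14.2%, where an unadjusted p under 0.05 gave 2 lower members (Mycn, Mycl) and DESeq2 called 1 (Mycn). The study also asked for a log2 fold change beyond 1, with DESeq2 and at both 18 h and 30 h. With that fold change asked here of single times in edgeR, 3 members passed at 18 h (Mycn, Myc, Mxd4) against 10.9% of all genes. At 78 h 1 passed (Myc) against 11.7%. The libraries of RA-treated and untreated organoids did not overlap for 7 of the 10 members at 18 h (61% of all genes) and for 8 at 78 h (56.2% of all genes). The median change of the 10 members was -0.02 at 18 h and 0.11 at 78 h, against 0.02 and 0.0015 over all genes.

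The scale of these changes depends in part on how libraries are made comparable. Scaling by library totals in place of TMM moved the median change of all genes from 0.02 to 0.14 at 18 h and from 0.04 to 0.18 at 30 h, and the share of calls that rose from 52.3% to 69.4% and from 58.1% to 73.5%. Of the members, Mycl then joined those that rose at 18 h and Mnt left those that fell. Mycn, Myc, Max and Mxd4 kept their direction and their calls at 18 h under both scalings. The share of calls that rose also went from 50.9% to 64.1% for untreated 18 h against day 2, from 51.0% to 69.0% for RA-treated 18 h against day 2 and, for the interaction of 78 h with 18 h, from 47.0% positive to 36.5%, with the median of all genes moving from 0.02 to 0.22 for RA-treated 18 h against day 2.

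The comparisons with day 2 ask what changed from the start of treatment within each arm. In untreated organoids at 18 h Mycn (log2 fold change -0.45, edgeR adjusted p = 4.9e-05), Myc (-0.63, adjusted p = 1.0e-05) and Max (-0.28, adjusted p = 8.3e-04) fell and Mycl rose (0.33, adjusted p = 0.0059), where 14.1% of all genes fell and 14.6% rose. The Mycl call was lost in 4 of 6 fits without 1 library (edgeR adjusted p from 0.010 to 0.032). In RA-treated organoids at 18 h Mycn fell 8.60-fold from day 2 (log2 fold change -3.10, SE 0.0705, edgeR adjusted p = 1.7e-15). Myc fell by 1.71 and Max by 0.76 on the log2 scale, Mnt by 0.39, and Mycl (0.50), Mxd1 (0.44), Mxd4 (1.44) and Mlx (0.31) rose, each with an edgeR adjusted p of 0.0022 or lower, where 28.8% of all genes fell and 30.0% rose. Both comparisons share the day 2 libraries, so their values stand side by side without a test between them. Of the day 2 libraries, replicate 3 was of the later library series, while no 18 h library was. The Mxd1 rise was lost without RA 18 h replicate 3 (edgeR adjusted p = 0.014).

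From 18 h to 78 h the arms moved towards each other for Mycn. In untreated organoids Mycn fell by 1.29 on the log2 scale (SE 0.0539, edgeR adjusted p = 1.2e-10), Myc by 1.66, Max by 0.48 and Mnt by 0.46, while Mycl rose 3.77-fold (log2 fold change 1.92, SE 0.0631, edgeR adjusted p = 1.4e-11) and Mxd4 rose (0.50). Those 4 falls and 2 rises stand beside 28.5% and 31.6% of all genes. In RA-treated organoids Mycn (log2 fold change 1.08, SE 0.0713, edgeR adjusted p = 4.5e-08), Myc (1.16, adjusted p = 2.4e-06) and Mycl (1.45, adjusted p = 6.0e-09) rose and Mlx fell by 0.54 (adjusted p = 2.3e-05), beside 28.4% and 27.1% of all genes. The Mxd4 level at 78 h was 0.997 times that at 18 h there, with an SE of 0.0854 on the log2 scale. For all of these, time and library series cannot be told apart.

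The difference between the RA effect at 78 h and at 18 h was put to a test of its own, the interaction term of a fit with all 12 libraries of both times. It was positive for Mycn (2.38 on the log2 scale, SE 0.0883, edgeR adjusted p = 8.6e-12), Myc (2.83, SE 0.149, edgeR adjusted p = 4.0e-10), Max (0.54, edgeR adjusted p = 8.6e-06) and Mnt (0.31, edgeR adjusted p = 0.0057). It was negative for Mycl (-0.45, edgeR adjusted p = 0.0022), Mxd4 (-0.49, edgeR adjusted p = 0.0043) and Mlx (-0.45, edgeR adjusted p = 5.6e-04). Those 4 and 3 members stand beside 13.1% and 14.8% of all genes. Leaving out 1 library lost the Mxd4 call in 5 of 12 fits (RA 18 h replicate 1, RA 78 h replicates 1 and 2, untreated 18 h replicate 3 and untreated 78 h replicate 3, edgeR adjusted p from 0.012 to 0.028). It lost the Mnt call in 4 (RA 18 h replicates 1 and 2, untreated 18 h replicates 1 and 3, edgeR adjusted p from 0.014 to 0.020) and the Mycl call in 2 (RA 78 h replicate 2 and untreated 78 h replicate 3, edgeR adjusted p from 0.012 to 0.015). Mxd1 (0.25, edgeR adjusted p = 0.11), Mxd3 (0.38) and Mxi1 (0.03) did not pass.

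Levels of separate genes were compared after division by the merged length of all their annotated exons. The transcripts in use were not determined, so the order, and the sums and ratios built on it, are approximate. Per kilobase, Mycn was at 144 CPM at day 2 and Max, next in order, at 30.7, followed by Mlx (17.4), Mnt (16.6), Myc, Mycl (6.04), Mxi1 (3.97), Mxd3 (3.85), Mxd4 (1.81) and Mxd1 (1.17). Neighbours in that order overlapped between Mnt and Myc and between Mxi1 and Mxd3. At 18 h after RA treatment Mlx (21.4 CPM per kilobase) and Max (18.0) were above Mycn (16.7), Mycl (8.55) and Mxd4 (4.90) had moved up, and Mxd4 overlapped with Myc (4.57). In untreated organoids at 18 h Mycn, at 104, was still the highest. The places of Mlx and Mxd3 are uncertain, since their exons overlap those of genes on the other strand.

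At 78 h Mycn was again the highest member in both arms, at 41.5 CPM per kilobase untreated and 35.5 after RA treatment, and Mycl was next at 27.6 and 23.5. Myc was at 2.96 CPM per kilobase untreated, where it overlapped with Mxd3 and Mxd4, and at 10.3 after RA treatment, where it overlapped with Mnt. From the lowest to the highest of the 15 condition means the level differed by 8.64-fold for Mycn, 5.42-fold for Myc, 4.94-fold for Mxd4 and 4.93-fold for Mycl. It differed least, by 1.46-fold, for Mlx, whose values are uncertain because of the exon overlap.

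Summed per kilobase, the 3 MYC genes showed how much of the family each member supplied. Their sum was 165 CPM per kilobase at day 2, 121 in untreated and 29.8 in RA-treated organoids at 18 h, with no overlap (116 to 125 against 28.7 to 30.6). At 78 h it was 72.1 untreated and 69.3 after RA treatment, and the ranges overlapped (69.2 to 73.7 against 68.5 to 70.7). Mycn made up 87.3% of the sum at day 2, 85.9% untreated and 56.0% after RA treatment at 18 h, and 57.6% and 51.3% at 78 h. Mycl made up 3.65% at day 2, 28.7% after RA treatment at 18 h, and 38.3% untreated and 33.9% after RA treatment at 78 h. Myc made up 4.11% of the sum in untreated and 14.8% in RA-treated organoids at 78 h, so sums that overlapped were put together differently.

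The sum of the 5 antagonists was 24.9 CPM per kilobase in untreated and 26.0 in RA-treated organoids at 18 h, with ranges that overlapped (24.3 to 25.6 against 25.4 to 26.5). At 78 h it was 20.7 and 25.5, with no overlap (20.5 to 21.1 against 24.7 to 26.3), so there the antagonists differed between the arms and the sums of the MYC genes overlapped. Mxd4 made up 7.97% of their sum untreated and 18.8% after RA treatment at 18 h, and 28.0% after RA treatment at 30 h against 7.53% untreated. The ratio of the MYC genes to the antagonists was 6.04 at day 2, 4.87 untreated (4.79 to 4.93) and 1.15 after RA treatment (1.13 to 1.15) at 18 h. It was 3.48 untreated (3.37 to 3.58) and 2.72 after RA treatment (2.68 to 2.77) at 78 h, again without overlap. These are ratios of transcripts and say nothing of protein, and the antagonist sum includes Mxd3, whose values are uncertain because of the exon overlap. At 30 h RA replicate 2 set the upper end of the RA range, 1.59, with 1.19 the lowest.

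**Figure D3:**
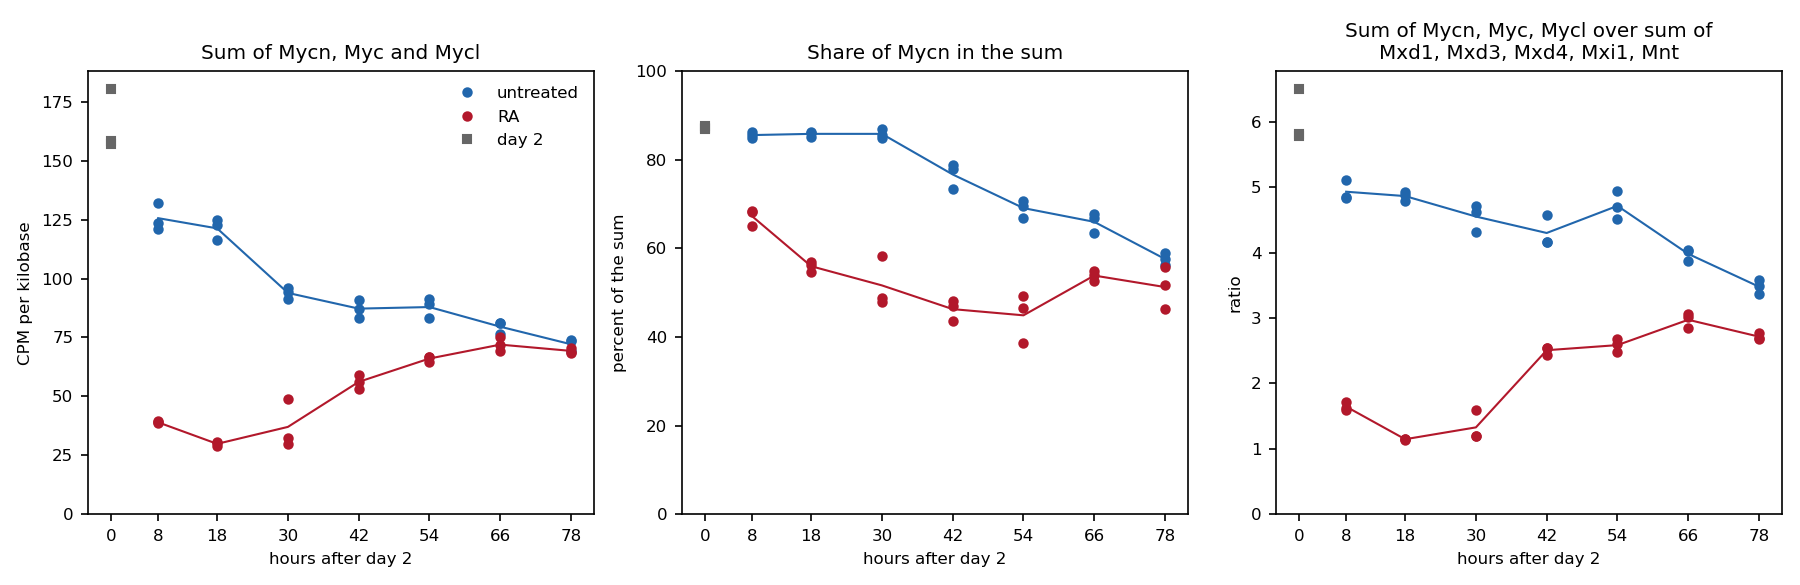
Quantities per library against hours after day 2: the sum of Mycn, Myc and Mycl in CPM per kilobase, the share of Mycn in that sum in percent, and the ratio of that sum to the sum of the 5 antagonists, with lines through condition means (blue untreated, red RA-treated, grey day 2). The sum and the ratio were lowest in RA-treated organoids at 18 h, at 29.8 CPM per kilobase and 1.15, and the Mycn share of the RA group was lowest at 54 h, at 44.9%.

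The other genes of the pathway were taken from lists of well-known MYC partners and targets, and each list is described by its counts and its median. All genes gave the background, with 22.3% rising and 20.3% falling at 18 h (median 0.02) and 19.2% and 14.2% at 78 h (median 0.0015), and with the shares given above for the times in between. Of 18 targets in the nucleolus and ribosome assembly, 0 rose and 17 fell at 18 h, with a median log2 fold change of -0.57 against 0.02 over all genes. No gene of this list was higher at an unadjusted p under 0.05 or by DESeq2 at any tested time of RA against untreated. Nolc1, a nucleolar chaperone, had 290 ± 20.6 CPM in RA-treated and 529 ± 35.3 CPM in untreated organoids at 18 h (log2 fold change -0.86, SE 0.0637, edgeR adjusted p = 2.3e-07). Polr1b, a subunit of RNA polymerase I, fell by 0.72 (edgeR adjusted p = 1.3e-06) and Rrp9, which processes ribosomal RNA, fell by 0.68 on the log2 scale (edgeR adjusted p = 1.3e-07).

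The number of these nucleolar genes that fell was 9 at 30 h, 16 at 42 h, 12 at 54 h, 8 at 66 h and 7 at 78 h, and the median went from -0.79 at 30 h to -0.19 at 78 h. Without RA 30 h replicate 2, 17 fell at 30 h with a median of -0.90. At 78 h Gnl3, or nucleostemin, fell by 0.40 (edgeR adjusted p = 6.9e-04), Npm1, or nucleophosmin, by 0.39 (edgeR adjusted p = 5.8e-04) and Wdr12, of the complex that matures the large ribosomal subunit, by 0.34 on the log2 scale (edgeR adjusted p = 2.4e-04). The interaction of 78 h with 18 h was positive for 12 of the 18 and negative for 0 (also 0 at an unadjusted p under 0.05 and by DESeq2), with a median of 0.35 against -0.05 over all genes. In untreated organoids all 18 fell from 18 h to 78 h (median -0.56), where time and library series cannot be told apart.

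Of 23 targets in metabolism and growth, 2 rose and 18 fell at 18 h, with a median of -0.52. Ldha, the lactate dehydrogenase of glycolysis, had 740 ± 55.3 CPM against 1448 ± 67.1 CPM (log2 fold change -0.96, edgeR adjusted p = 5.3e-08), and Srm, which makes spermidine, fell by 0.87 on the log2 scale (edgeR adjusted p = 7.9e-08). The 2 that rose were Ccnd2, a D-type cyclin, and Shmt2, a mitochondrial enzyme of serine metabolism that is named here after its value was seen, with Ccnd2 at 177 ± 8.26 CPM against 46.0 ± 3.74 CPM (log2 fold change 1.95, edgeR adjusted p = 7.8e-11). At 78 h 2 rose and 7 fell, with a median of -0.13. Ccnd2 was then at 933 ± 103 CPM against 457 ± 32.9 CPM (log2 fold change 1.03, edgeR adjusted p = 1.4e-06), Ldha fell by 0.76 (edgeR adjusted p = 4.1e-04) and Tert, the telomerase subunit, by 0.68 on the log2 scale (edgeR adjusted p = 0.0018).

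At the times in between, 11 of the 23 metabolic targets fell at 30 h (21 without RA replicate 2), 18 at 42 h, 14 at 54 h and 15 at 66 h, each time with 1 that rose. The E-box CACGTG was in 8 of 25 promoters of this list (32.0%), in 0 of 16 promoters of the nucleolar list and in 6.02% of all promoters.

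**Figure D4:**
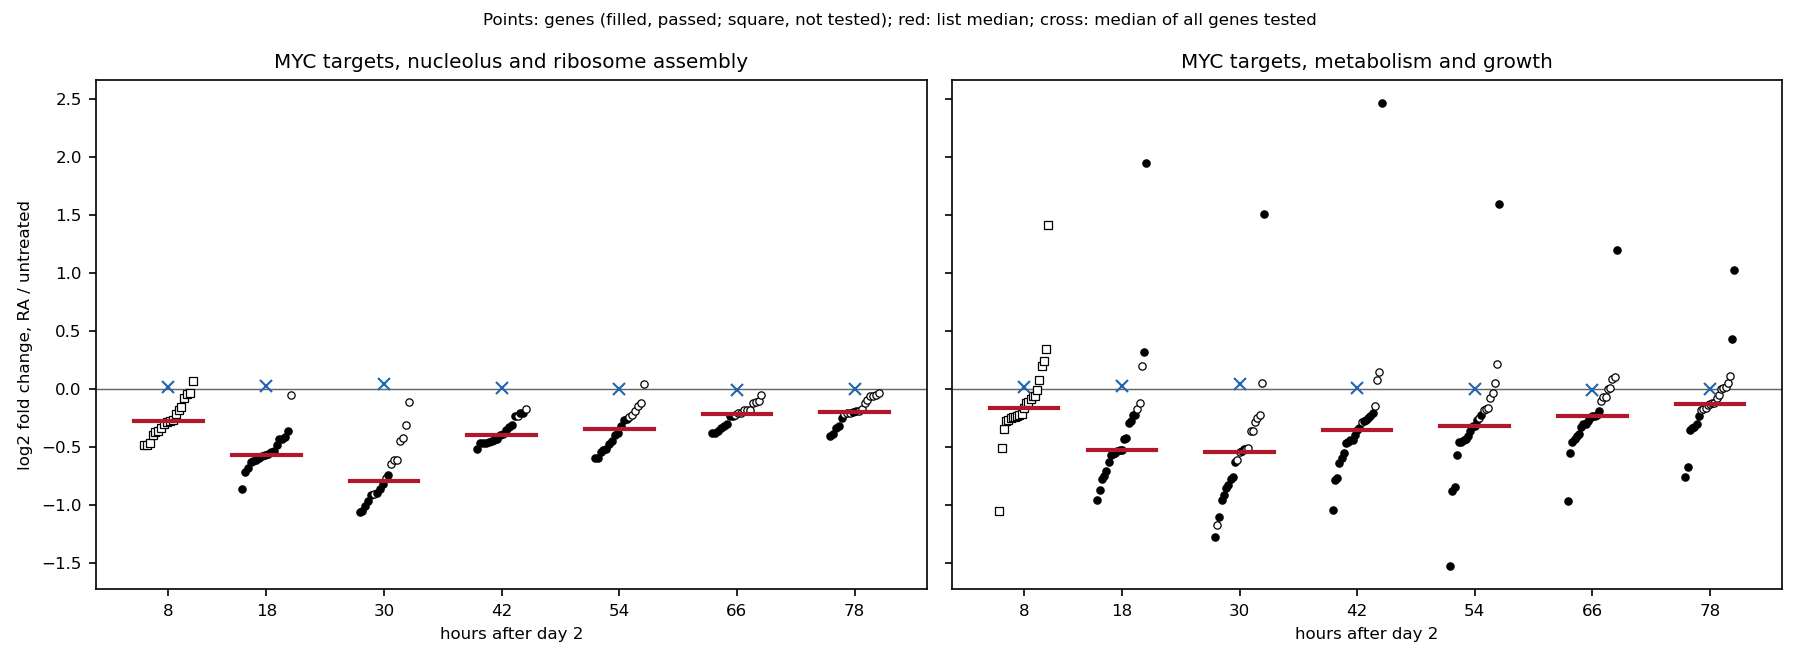
Log2 fold change of RA-treated over untreated organoids for each gene of the nucleolar and the metabolic target list against hours after day 2, with a red bar at the list's median and a blue cross at the median of all genes. The nucleolar median was lowest at 30 h, at -0.79, and nearest to 0 at 78 h, at -0.19, with Ccnd2 the high point of the metabolic list at 18 h, at 1.95.

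MYC needs cofactors, and 1 of the 14 on that list rose and 8 fell at 18 h, with a median of -0.27. Wdr5, which helps MYC bind chromatin, fell by 0.53 (edgeR adjusted p = 2.0e-06), and the AAA ATPases Ruvbl2 by 0.51 (edgeR adjusted p = 2.0e-05) and Ruvbl1 by 0.46 on the log2 scale (edgeR adjusted p = 6.4e-06). At 78 h 1 rose and 0 fell, where an unadjusted p under 0.05 gave 4 lower genes and DESeq2 called 1. The one that rose was Sin3b, a scaffold of the corepressor that MXD proteins recruit, with 237 ± 7.69 CPM against 114 ± 2.47 CPM (log2 fold change 1.05, SE 0.0485, edgeR adjusted p = 2.5e-08).

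Of 13 genes that act on the turnover of MYC proteins, 2 rose and 6 fell at 18 h. Usp28, a deubiquitinase that stabilizes MYC proteins, had 109 ± 2.08 CPM after RA treatment and 354 ± 17.6 CPM untreated (log2 fold change -1.69, SE 0.0509, edgeR adjusted p = 3.6e-11), and at 78 h its log2 fold change was -0.38 (edgeR adjusted p = 1.7e-04). Skp2, a ubiquitin ligase subunit, fell by 0.37 (edgeR adjusted p = 5.3e-05) and Aurka, a kinase that protects MYCN from degradation, by 0.34 on the log2 scale (edgeR adjusted p = 1.6e-04) at 18 h. The median at 18 h was -0.20. From 42 h to 66 h 1 gene of this list rose and 2 or 3 fell at each time, a share below that of all genes for rises (17.8% to 20.8%) and near it for falls (15.6% to 17.9%).

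Of 6 genes that MYC proteins are known to repress, 2 rose and 3 fell at 18 h (median -0.51), and 4 rose and 1 fell at 78 h (median 0.56). Ndrg1, named as a gene repressed by MYCN, fell by 1.27 on the log2 scale at 18 h (edgeR adjusted p = 1.4e-07) and rose at 78 h, with 71.9 ± 2.25 CPM against 18.3 ± 1.95 CPM (log2 fold change 1.97, edgeR adjusted p = 8.0e-09). Ndrg2, its relative, fell at both times, by 1.31 at 18 h (edgeR adjusted p = 4.0e-08) and by 2.38 at 78 h (edgeR adjusted p = 3.7e-06) on the log2 scale. Gadd45a, a growth arrest gene, rose at 18 h (log2 fold change 0.38, edgeR adjusted p = 8.5e-05), and the cell cycle inhibitor Cdkn2b rose at 78 h from 0.969 to 2.96 CPM (log2 fold change 1.62, edgeR adjusted p = 2.1e-04).

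Of 3 further genes of the MAX and MLX network (Mga, Mlxip, Mlxipl), Mlxipl, the carbohydrate response factor, rose at 18 h (log2 fold change 0.56, edgeR adjusted p = 3.9e-05), and Mlxip fell by 0.22 on the log2 scale (edgeR adjusted p = 0.0059). At 54 h 2 of the 3 fell, and at 78 h 0 passed, where an unadjusted p under 0.05 gave 2 lower and DESeq2 called 1.

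Markers of cell types, measured in RNA of whole organoids, changed along with these genes. Summed markers of epiblast and pluripotent cells were 3543 to 3697 CPM at day 2, 3149 to 3423 CPM in untreated and 824 to 894 CPM in RA-treated organoids at 18 h, and 1203 to 1361 CPM against 269 to 465 CPM at 78 h. At 18 h 1 of these 6 markers rose and 4 fell, with Pou5f1 at 307 CPM after RA treatment against 769 CPM and Fgf5 at 3.33 against 64.3 CPM. Summed markers of neuroepithelium were 463 to 479 CPM at day 2. At 18 h they were 414 to 443 CPM untreated and 473 to 488 CPM after RA treatment. Of the 6 markers 4 rose there, with Sox1 at 29.4 CPM after RA treatment against 5.34 CPM. Most of these sums was Sox2, at 411 CPM at day 2, 323 CPM untreated and 287 CPM after RA treatment at 18 h. At day 2 and in untreated organoids at 18 h Hes5, a defining marker of neuroepithelium, was under 1 CPM.

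At 18 h markers of neurons were 228 to 236 CPM untreated and 175 to 177 CPM after RA treatment. Of the 8, 0 rose and 2 fell there. At 42 h they were 257 to 296 CPM against 117 to 128 CPM, where 0 rose and 4 fell. At 66 h they were 297 to 312 CPM against 240 to 264 CPM, although 6 rose and 2 fell. By 78 h the order of the sums had turned, with 296 to 303 CPM untreated and 364 to 397 CPM after RA treatment. There 6 of 8 rose and 1 fell. Markers of endoderm were 2.58 to 3.02 CPM untreated and 16.0 to 18.7 CPM after RA treatment at 18 h. Of that list Sox17, Gata6, Foxa2 and Afp were under 1 CPM untreated, and Afp was so after RA treatment too. Those of trophoblast were 21.3 to 25.4 CPM untreated and 178 to 180 CPM after RA treatment at 78 h. Elf5 of that list was under 1 CPM in both arms. Those of fibroblasts were 42.5 to 62.5 CPM untreated and 12.3 to 18.0 CPM after RA treatment at 78 h. Of the 5 fibroblast markers 2 rose and 3 fell at 78 h, so their sum and their single changes did not all point one way. The part of these cell types in the differences of Mycn, Myc, Mycl and Mxd4 was not tested.

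The genes whose course over the 15 condition means was most like that of Mycn were Zfp36l2, an RNA-binding protein that destabilizes messages (Pearson r of log2 levels 0.979), Trim27 (0.972), Enc1 (0.968), Slc35a2 (0.963) and Foxd3, a factor of pluripotent and neural crest cells (0.955), among 9770 genes with a mean of at least 10 CPM. Zfp36l2 was at 125 CPM in untreated and 26.7 CPM in RA-treated organoids at 18 h and at 43.9 and 42.8 CPM at 78 h, a course that was the ground for choosing it. Foxd3 was at 44.7 and 0.711 CPM at 18 h. In all, 67 genes had an r over 0.9, and the median over all genes was 0.0962. Among the members, Max was at 0.676 and Mnt at 0.607, and Mxd4 at -0.850 was the most opposed. These are correlations over means that share libraries and a common drift with time, and they describe likeness only.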

How the data were processed

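RNA of 45 libraries was sequenced by the authors as single-end reads of 75 bases from a directional poly(A) kit. Per the labels and the study's methods, reads were trimmed with Trim Galore 0.5.0, aligned to GRCm38 with STAR and counted per gene with featureCounts (Subread 1.6.2); Bowtie2 2.3.4.1 is also named in the processing notes. The deposited values are raw counts per gene, not normalized. Groups followed the labels. A comparison used only the libraries of its own groups (6, or 12 for the interaction) and was fitted with edgeR 4.0.16 in R 4.3.3, genes with low counts being removed with filterByExpr at its defaults and libraries scaled by TMM. DESeq2 1.42.0, other scalings, other filters, 1 fit of all 45 libraries, a replicate block and fits leaving out 1 library were alternatives.

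The correlations of same-numbered untreated and RA-treated libraries ran highest at 66 h (0.149 to 0.434). There the numbers were taken as pairs, in a fit given beside the main one. At 78 h they ran from 0.024 to 0.283 and at 30 h from 0.063 to 0.192, and were not taken as pairs. No 2 replicates were alike within counting noise (lowest mean chi-square per gene 1.92). In simulated counts for the 18 h comparison over 16417 genes, edgeR recovered 98.0% of genes changed by a log2 fold change of 1, with 2 false calls. For the interaction it recovered 90.0%, with 3 false calls. The simulation gave all genes the same spread between replicates and held no library that stood apart. It held no smaller changes, so it cannot speak to the smaller calls given here. Genes with a course like that of Mycn were the 5 with the highest Pearson r of log2(CPM + 1). List genes were named by rule, at most the 3 with the largest change among those that passed at 18 h and at 78 h. The members and gene lists were chosen with earlier results of these data known.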

Additional observations from a re-analysis of the deposited data

Results flagged for a closer look

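The effect of RA treatment at 78 h differed from that at 18 h for 7 of the 10 genes by a test of the difference itself (the interaction term in edgeR, 12 libraries). On the log2 scale, the effect at 78 h minus that at 18 h was 2.38 for Mycn, 2.83 for Myc, 0.54 for Max, 0.31 for Mnt, -0.45 for Mycl, -0.49 for Mxd4 and -0.45 for Mlx. For Mycn the untreated level went from 343 ± 14.2 to 137 ± 5.51 CPM and the RA-treated level from 55.0 ± 2.85 to 117 ± 8.96 CPM. For Myc the effect turned from lower to higher, and both single effects passed. The Mnt, Mycl and Mxd4 differences were the least firm, being lost when all 45 libraries were fitted together (edgeR adjusted p = 0.026 for Mnt, 0.24 for Mycl and 0.011 for Mxd4). All 78 h libraries were of the later library series, so time and series cannot be told apart here, although both arms at 78 h were of that series.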

How the results depend on the processing

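Depth limited Mxd3 and Mxd1 most, with as few as 99 and 108 counts in a library, and replicate numbers of 3 limited every test. Each comparison was refitted with RLE size factors, library totals, DESeq2, 1 edgeR fit of all 45 libraries, no filter on low counts, at least 10 counts in every library and a replicate block, and at 30 h with the earlier library series only. The main fit was also read at an adjusted p under 0.05 and with the study's added log2 fold change beyond 1. These 2 readings are no refits, so a fold change and its direction could not move in them. Of 1000 fold changes of members in these fits and readings, 888 kept their direction and side of the threshold. Of the rest, 63 lost and 31 gained the call and 18 changed sign. Of 200 counts of members 167 stayed within 1.5 times. Where a value changed the cause was not tested.

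No value that changed sign had passed. With library totals the log2 fold changes of RA against untreated were 0.094 (Mxd3) and 0.10 (Mxi1) at 18 h, 0.017 (Mnt) and 0.096 (Mlx) at 30 h, 0.024 (Mxd3) at 42 h and 0.030 (Max) at 54 h, those of RA 18 h against day 2 were 0.025 (Mxd3) and 0.030 (Mxi1), and the interaction of Mxi1 was -0.047. With at least 10 counts Mxi1 was at 0.0013 at 18 h, and without a filter Max was at -0.0091 at 66 h. Mxd1 was at -0.0088 in untreated 18 h against day 2 in the fit of all libraries, and at -0.021 (RLE), -0.011 (DESeq2) and -0.033 (fit of all libraries) in untreated 78 h against 18 h. Mxd4 was at 0.014 (DESeq2), 0.0048 (fit of all libraries) and 0.035 (no filter) in RA 78 h against 18 h.

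The 78 h Mycn change passed with RLE size factors (-0.24, adjusted p = 0.0099), DESeq2 (-0.23, adjusted p = 0.0044), no filter (edgeR, -0.22, adjusted p = 0.0032) and the replicate block (edgeR, -0.23, adjusted p = 0.0020), and at an adjusted p under 0.05 (edgeR, -0.23, adjusted p = 0.012). Members that fell at 78 h then numbered 1 with RLE and with DESeq2, and 2 with no filter, the block and an adjusted p under 0.05. At 30 h the number that fell was 2 with DESeq2, no filter and an adjusted p under 0.05, and 3 in the fit of all libraries and in the earlier series, where 1 RA-treated library was left and was assumed to vary like the untreated ones. At 42 h 1 fell with library totals and 2 rose in the fit of all libraries, which lost Myc (edgeR adjusted p = 0.013) and Mycl (0.015). The fit of all libraries also lost Myc (0.012) and Mycl (0.24) in untreated 18 h against day 2 and Mycl (0.025) in RA 18 h against day 2. In it 0 rose for untreated 18 h against day 2 and 1 interaction was negative. In RA 78 h against 18 h 2 fell at an adjusted p under 0.05.

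With the demand of a log2 fold change beyond 1, Mycn was no longer called at 66 h (-0.45) or in untreated 18 h against day 2 (-0.45). The members that rose and fell were then 1 and 2 for RA against untreated at 18 h, with 1 of each at 42 h. At 66 h 1 rose and 0 fell. They were 0 and 0 in untreated 18 h against day 2, 1 and 2 in RA 18 h against day 2, 1 and 2 in untreated 78 h against 18 h, and 2 and 0 for the interaction. At 54 h and at 78 h 1 rose, and 0 fell in RA 78 h against 18 h.

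The replicate block at 42 h left 1 member that fell, with Mxi1 (edgeR adjusted p = 0.011), Mlx (0.037) and the rise of Mxd1 (0.020) lost. It also lost Mnt at 18 h (edgeR adjusted p = 0.022) and Mxd1 at 30 h (0.012), and it added Mycn and Mycl at 78 h (edgeR adjusted p = 0.00064 for Mycl). The correlations of same-numbered pairs ran highest at 66 h, where the paired fit added Mxd3 and changed no other member's call. Elsewhere the lowest correlation of a same-numbered pair was -0.315 and the highest 0.283, the latter at 78 h.

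Leaving out 1 library gave log2 fold changes from -0.12 to 0.080 (Mxd3) and -0.052 to 0.016 (Mxi1) at 18 h, -0.23 to 0.057 (Mxd3) at 42 h, -0.065 to 0.0093 (Max) at 54 h, -0.017 to 0.052 (Max) at 66 h, and -0.29 to -0.17 (Mycn) and -0.051 to 0.14 (Mxi1) at 78 h. It gave -0.076 to 0.065 (Mxd1) and -0.24 to 0.025 (Mxd3) in untreated 18 h against day 2, -0.049 to 0.061 (Mxd1) in untreated 78 h against 18 h, -0.10 to 0.080 (Mxd4) in RA 78 h against 18 h and -0.018 to 0.17 for the interaction of Mxi1. The number of members that fell ranged from 1 to 4 at 30 h, 1 to 2 at 42 h, 0 to 1 at 78 h and 1 to 3 for the interaction, and the number that rose from 0 to 1 in untreated 18 h against day 2. The Mycn call from 18 h to 66 h and the Mxd4 call from 18 h to 78 h held in each of these fits.

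The gene lists were refitted after seeing the data. Without RA 30 h replicate 2, 17 nucleolar and 21 metabolic targets fell at 30 h. With all 6 libraries of 30 h, DESeq2 called 17 of the metabolic targets lower. Ranked by the mean CPM over all 45 libraries, not per kilobase, Mycl was at place 3, Mnt 4, Mlx 5, Mxd4 6, Myc 7, Mxd1 9 and Mxd3 10, against 4, 5, 3, 7, 6, 10 and 9 per kilobase.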

Other observations

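Set against day 2, the pathway lists of RA-treated organoids at 18 h moved mostly down. Of the 14 cofactors and corepressors 12 fell, of the 13 genes of MYC turnover 9 fell and 2 rose, of the 18 nucleolar targets 17 fell (median log2 fold change -0.77) and of the 23 metabolic targets 19 fell and 2 rose (median -0.53), where 28.8% of all genes fell. In untreated organoids over the same 18 h, 5 cofactors, 3 turnover genes, 9 nucleolar targets (median -0.21) and 5 metabolic targets (median -0.10) fell, where 14.1% of all genes fell. The day 2 libraries are shared by both comparisons, which were not tested against each other.

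From 18 h to 78 h in RA-treated organoids, when Mycn and Myc rose, 1 nucleolar target rose and 11 fell (median -0.26), while 7 metabolic targets rose and 8 fell and 7 cofactors rose and 3 fell, beside 28.4% of all genes that rose and 27.1% that fell. Time and library series cannot be told apart there.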
